A study of Mus musculus with 6 samples.

Results

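The MYC, MAX and MXD network is a set of 10 genes read here in C2C12 muscle cells: the activators Myc, Mycn and Mycl, the shared partner Max, the antagonists Mxd1, Mxd3, Mxd4, Mxi1 and Mnt, and the Max-like partner Mlx. They were taken by gene symbol from a table of 27179 genes, and all 10 were found. The table holds read counts from 3 myotube and 3 myoblast libraries. C2C12 is an established mouse line of muscle precursors, or myoblasts, that stop dividing and fuse into multinucleated myotubes when serum is withdrawn. For myotubes, cells stood at 100% confluence for 3 days and were then given 5 days in 2% horse serum with an insulin, transferrin, selenium and ethanolamine supplement. Myoblasts were kept below confluence in 10% fetal bovine serum. The labels name no engineered allele in either group, and both were grown in high-glucose medium with 4 mM glutamine. Serum, supplement, cell density and differentiation therefore differ together and cannot be told apart, and every library comes from 1 cell line.

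MYC proteins are basic helix-loop-helix leucine zipper factors that bind DNA only as dimers with MAX. MYC and MAX together bind E-boxes and promote genes of growth, ribosome production and the cell cycle. MXD proteins, MXI1 and MNT compete for MAX, bind the same sites and recruit Sin3 repressor complexes. MLX takes the place of MAX in dimers with the glucose-responsive MONDO proteins and with some MXD proteins and MNT. In many lineages MYC falls and MXD proteins rise as cells leave the cell cycle, and muscle cells withdraw from the cycle before they fuse.

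Library totals were 7370169 to 8339589 counts in myotubes and 10076945 to 11723881 counts in myoblasts. Nothing in the labels says that the triplicates were grown as separate cultures, and p-values cover the spread among these libraries alone, possibly a technical one. The labelled states matched their defining markers. All 8 myotube markers rose in myotubes, among them the sarcomere protein gene Actn2 (log2 change 9.84) and the creatine kinase gene Ckm (9.27), and all 12 markers of cycling cells fell. The summed level of the myotube markers was 15100 to 15700 CPM (counts scaled to a common library size) in myotubes and 1260 to 1340 CPM in myoblasts. Markers of reserve cells, undifferentiated cells known to persist in such cultures, did not move as 1 set. Of the 6 genes 4 rose, with Spry1 and Heyl first (log2 changes 2.91 and 1.94), and 1, Myf5, fell (-0.13, a call lost with DESeq2 size factors and without myotube library 1 or 3 or myoblast library 1 or 3). Over all genes tested, 40.2% were called higher and 39.2% lower. Pax7, named after its values were seen, was not called, with 63.8 ± 6.08 CPM in myotubes and 59.2 ± 1.64 CPM in myoblasts (SD, n = 3). The 6 genes summed to 718 to 764 CPM in myotubes and 405 to 423 CPM in myoblasts. Notch3, also named after its values were seen, held the largest part, with 378 CPM in myotubes and 207 CPM in myoblasts. Antisense genes overlap 24.4% of the exon bases of Spry1 and 15.5% of those of Ckm. Their part in the results that follow was not tested. The adipocyte markers summed to at most 0.143 CPM in any library, with Adipoq at 0 counts throughout. The leukocyte and endothelial markers summed to 1.49 to 2.78 CPM in myotubes and 1.60 to 2.34 CPM in myoblasts, and Adgre1 was at 0. The osteoblast markers summed to 10.8 to 12.5 CPM in myotubes and 9.79 to 10.6 CPM in myoblasts, nearly all of it from Dmp1, with Ibsp at 0. In bulk RNA, fewer cells of a type and less RNA per cell cannot be told apart.

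The DNA element that the dimers bind is written in the promoters of several of the genes themselves, and these sites are shown because network proteins are known to bind this sequence. The canonical E-box CACGTG, a palindrome, was searched in RefSeq promoter windows of GRCm38.p6 that run from 250 bases before to 50 bases after an annotated start. It was present for 4 of the 9 genes that have such a window, Max, Mxd4, Mnt and Mlx, against 8.09% of the 27025 genes with a window. Myc has no such window, so its promoter was not searched. Capitals mark the E-box, and the strand is that of the gene.
Max, chr12:76962234-76962263, minus strand: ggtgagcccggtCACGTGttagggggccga
Mxd4, chr5:34187912-34187941, minus strand: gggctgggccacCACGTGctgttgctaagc
Mnt, chr11:74830789-74830818, plus strand: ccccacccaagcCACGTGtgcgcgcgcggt
Mlx, chr11:101087238-101087267, plus strand: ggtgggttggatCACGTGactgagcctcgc
The E-box of Max spans the annotated start, from base -3 to base 3, and those of Mlx, Mnt and Mxd4 begin at bases -40, -123 and -219. A match is a description of these letters, not evidence of binding in these cells.

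In the Mxd3 promoter window a different element was found. E2F factors, which drive S-phase genes, bind sites of the form TTCCCGC. This form and its variants with TTGGCGC as the letters, with TTCGCGC as the letters or with TTGCCGC as the letters were searched on both strands. Mxd3 holds 1 match at bases -136 to -130 on the opposite strand, Mxi1 holds 1 and Mycn holds 3, some of which overlap. Among all genes with a window 10.9% hold at least 1. Such a match is no evidence of binding in these cells, and the part of E2F factors in the Mxd3 change was not tested. The Mxd3 site is shown because Mxd3 moved furthest of the 10 genes, and its capitals mark the reverse complement of TTCCCGC.
Mxd3, chr13:55329850-55329879, minus strand: agttcagcctggGCGGGAAgaggcgggctg
The windows printed for Max, Mlx and Mxd3 lie within the outermost RefSeq boundaries of their genes, that of Mnt straddles the boundary and that of Mxd4 lies upstream.

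The network did not shift in one direction. Of the 9 genes that passed the filter on low counts, Mycl, Mxd1, Mxd4 and Mlx were called higher in myotubes, Myc, Max, Mxd3 and Mnt were called lower, and Mxi1 was not called. The calls come from edgeR's quasi-likelihood test at an adjusted p of 0.05 over all 12800 genes tested, of which 79.5% were called, 40.2% higher and 39.2% lower. The share of members called is near that background, so the size and direction of each change carry more than the count. Against a change of 2-fold, Mxd3 alone passed, on the lower side, where 21.6% of all genes passed, 12.4% higher and 9.20% lower. CPM did not overlap between myotubes and myoblasts for 8 of the 9 genes, against 80.5% of all genes tested. The calls of Mxd4 and Mlx were lost when counts were scaled by library total, in the DESeq2 Wald test and with no filter on low counts.

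**Figure D1:**
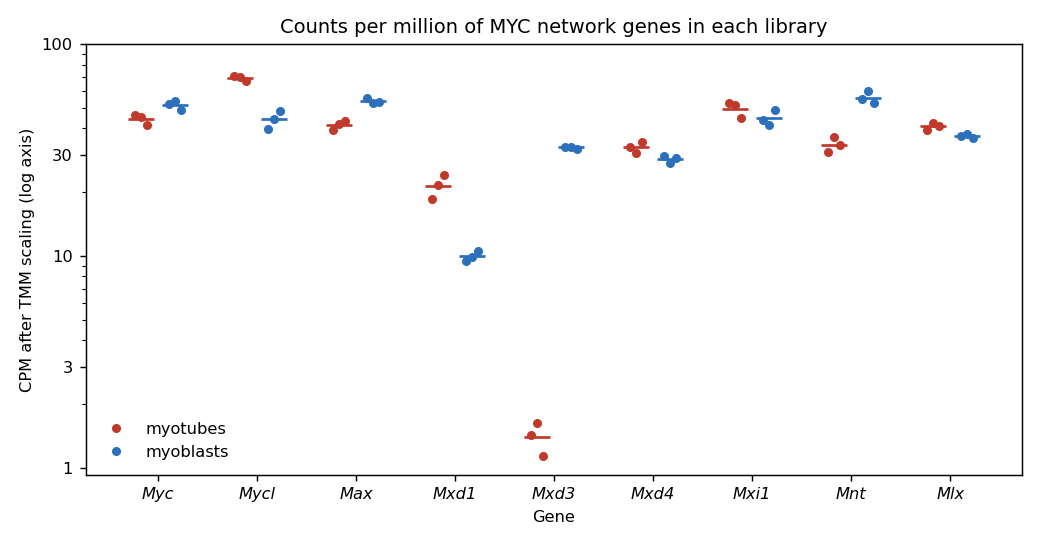
CPM after TMM scaling (log axis) of the 9 tested genes in each library, myotubes in red and myoblasts in blue. Points are libraries and bars are group means; Mxd3 sits between 1.14 and 1.62 CPM in myotubes, while both colours overlap for Mxi1. Mycn, with 1 count in all, is not drawn.

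Myc, the best known activator, was only modestly lower in myotubes. It had 46.1, 45.2 and 41.6 CPM in myotube libraries 1, 2 and 3, against 52.3, 53.8 and 48.8 CPM in myoblast libraries 1, 2 and 3. The groups did not overlap, but the highest myotube library and the lowest myoblast library were close. The log2 change was -0.23 (SE 0.07), which leaves myotubes at 85.5% of the myoblast level (adjusted p = 0.00326 by edgeR's quasi-likelihood test). Myc (Entrez gene 17869) lies on chromosome 15 at 61985341 to 61990361 in GRCm38, and the counts cover annotated exons.

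Mycl, which encodes the MYC relative L-MYC, moved in the opposite direction. Its levels were 70.9, 70.1 and 66.7 CPM in myotubes, against 39.7, 44.5 and 48.1 CPM in myoblasts. Every myotube library lay above every myoblast library. The change was 1.57-fold (log2 change 0.65, SE 0.07, adjusted p = 2.16e-09 by edgeR's quasi-likelihood test). Mycl (16918) lies on chromosome 4 at 122995588 to 123002490. Mycn (18109, chromosome 12, 12936093 to 12941836), known from embryonic brain and neuroblastoma, had 0 counts in the myotube group and 1 count in the myoblast group. Both are below the level of 3 counts over a group, which is 0.134 CPM in myotubes and 0.0881 CPM in myoblasts, so no fold is given.

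Levels of different genes can be compared only per length, here as CPM per kilobase of annotated exon. On that scale Mycl averaged 17.1 ± 0.556 and Myc 16.3 ± 0.885 in myotubes (SD, n = 3), and the libraries of both genes overlapped. In myoblasts Mycl averaged 10.9 ± 1.05 and Myc 19.0 ± 0.948 (SD, n = 3), without overlap. Mycl made up 51.3% ± 0.529 of the summed activator level in myotubes and 36.5% ± 3.12 in myoblasts (SD, n = 3). The ratio of Mycl to Myc was 1.04, 1.04 and 1.08 in the myotube libraries, against 0.511, 0.556 and 0.664 in the myoblast libraries. Summed over Myc, Mycl and Mycn, the activators stood at 33.4 ± 1.44 CPM per kilobase in myotubes and 29.9 ± 0.870 in myoblasts (SD, n = 3), so the summed transcript level was no lower in myotubes although Myc was.

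Max, the partner with which MYC proteins must pair and which MXD proteins and MNT also use, was lower in myotubes. It had 39.2, 42.0 and 43.3 CPM in myotubes, against 55.4, 52.4 and 53.4 CPM in myoblasts, with no overlap. The myotube level was 77.4% of that in myoblasts (log2 change -0.37, SE 0.06, adjusted p = 1.14e-05 by edgeR's quasi-likelihood test). Per kilobase of annotated exon, Max amounted to 20.9% ± 1.52 of the summed level of its activator and antagonist partners in myotubes and 22.3% ± 1.0 in myoblasts (SD, n = 3), and here the groups overlapped. The size of this share depends on the length used, which was 3598 exon bases for Max, against 1942 bases in its longest transcript. Max (17187) lies on chromosome 12 at 76937269 to 76962323.

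Mlx had the highest level per kilobase of annotated exon of the 10 genes in myotubes, and changed little. The rank depends on the length chosen, as the longest transcript has 1965 of 1999 exon bases for Mlx but 1942 of 3598 for Max. Mlx had 39.2, 42.6 and 40.8 CPM in myotubes, against 36.7, 37.5 and 36.2 CPM in myoblasts. The groups did not overlap, and the change was 1.11-fold (log2 change 0.15, SE 0.07, adjusted p = 0.0422 by edgeR's quasi-likelihood test). Of 14 alternatives 9 lost this call. Leaving out myotube library 2 or 3, or any one myoblast library, was enough to lose it, with an adjusted p of up to 0.155. Of its exon bases, 19.3% overlap exons of Psmc3ip on the other strand, and the sources used here do not say whether counting was by strand. Psmc3ip had 3.61 ± 0.706 CPM in myotubes and 10.9 ± 0.374 CPM in myoblasts (SD, n = 3). Its part in the Mlx count was not tested. Of the 50-base windows of Mlx, 17.5% recur in transcripts of other genes on either strand. That search also counts overlapping antisense transcripts such as those of Psmc3ip, so the 2 limits are not separate. Mlx (21428) lies on chromosome 11 at 101086707 to 101092207.

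Among the antagonists, Mxd3 was nearly lost from myotubes. MXD3 is known in mouse as the MXD protein of cycling progenitors, made in S phase. It had 1.43, 1.62 and 1.14 CPM in myotubes, against 32.8, 32.8 and 32.1 CPM in myoblasts. The myotube level was 4.30% of the myoblast level (log2 change -4.54, SE 0.15, adjusted p = 3.16e-19 by edgeR's quasi-likelihood test, adjusted p = 7.60e-17 against a 2-fold change). Only 30 of the 12800 genes tested had a lower log2 change. The myotube value rests on 31 counts over the group, with an exact 95% Poisson interval of 21.1 to 44.0 that covers counting error only, so the SE is too small for the size of the change. The 12 markers of cycling cells fell beside it, to between 5.13% of the myoblast level for the mitotic kinase gene Plk1 and 43.9% for E2f1, with 5.34% for the replication helicase gene Mcm5. They summed to 227 to 242 CPM in myotubes and 2520 to 2530 CPM in myoblasts, and their part in the Mxd3 result was not tested. Mxd3 (17121) lies on chromosome 13 at 55325170 to 55329900, and 4.43% of its exon bases overlap Prelid1 on the other strand, which had 155 ± 5.56 CPM in myotubes and 300 ± 8.46 CPM in myoblasts (SD, n = 3).

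Mxd1, an MXD gene induced in many terminally differentiating lineages, moved the other way. It had 18.6, 21.7 and 24.0 CPM in myotubes, against 9.44, 9.92 and 10.5 CPM in myoblasts. No libraries overlapped, and the myotube libraries spread more widely than the myoblast libraries, with a coefficient of variation of 12.8% in myotubes and 5.14% in myoblasts. The change was 2.16-fold (log2 change 1.11, SE 0.11, adjusted p = 2.41e-09 by edgeR's quasi-likelihood test), and the test against a 2-fold change was not passed (adjusted p = 0.243). Within a library, the log2 ratio of Mxd3 to Mxd1 per kilobase was -2.12, -2.16 and -2.82 in myotubes, against 3.38, 3.31 and 3.20 in myoblasts. Mxd3 was therefore the more abundant transcript in each myoblast library and Mxd1 in each myotube library. These are the tested members with the largest fall and the largest rise, so other pairs differ less. In myotubes the ratio rests on 10, 12 and 9 counts of Mxd3. Mxd1 (17119) lies on chromosome 6 at 86647044 to 86669234.

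Mxd4 and Mxi1, antagonists that are widely expressed in tissues with few dividing cells, differed little between the groups. Mxd4 had 32.8, 30.5 and 34.5 CPM in myotubes, against 29.7, 27.3 and 28.9 CPM in myoblasts. Its change was 1.14-fold (log2 change 0.19, SE 0.08, adjusted p = 0.0302 by edgeR's quasi-likelihood test). Of 14 alternatives 7 lost this call, and leaving out myotube library 1 or 3, or myoblast library 2 or 3, was enough, with an adjusted p of up to 0.137. Mxi1 had 52.7, 51.3 and 44.7 CPM in myotubes, against 43.9, 41.5 and 48.9 CPM in myoblasts. Its groups overlapped, because myotube library 3 was low and myoblast library 3 was high. The log2 change was 0.15, with a 95% interval of -0.01 to 0.30, and did not pass (adjusted p = 0.0729 by edgeR's quasi-likelihood test). It passed without myotube library 3 (log2 change 0.22, adjusted p = 0.00949) and without myoblast library 3 (log2 change 0.21, adjusted p = 0.0182). Mxd4 (17122) lies on chromosome 5 at 34176580 to 34187710 and Mxi1 (17859) on chromosome 19 at 53310128 to 53373293. Antisense transcripts overlap 6.06% of the exon bases of Mxd4 and 2.84% of those of Mxi1.

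Mnt, an antagonist that is expressed alongside MYC in dividing as well as resting cells, was lower in myotubes. It had 30.8, 36.3 and 33.3 CPM in myotubes, against 54.9, 59.7 and 52.7 CPM in myoblasts, and the groups lay far apart. The myotube level was 60.02% of the myoblast level (log2 change -0.74, SE 0.07, adjusted p = 1.09e-09 by edgeR's quasi-likelihood test). Mnt (17428) lies on chromosome 11 at 74830806 to 74845725.

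**Figure D2:**
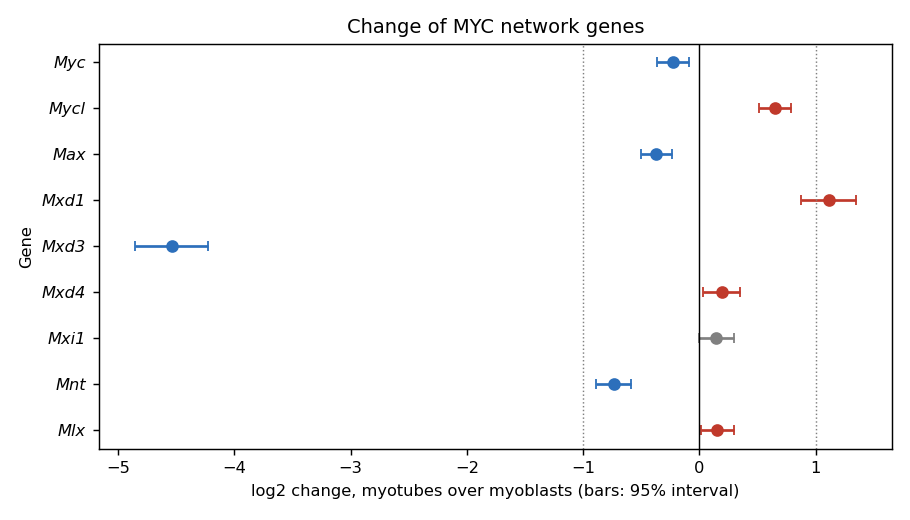
Log2 change of the 9 tested genes, myotubes over myoblasts, from edgeR, with 95% intervals as bars and dotted lines at a 2-fold change. Red genes were called higher in myotubes, blue genes lower, and grey Mxi1 was not called. Mxd3, at -4.54, stands apart from the others, which lie between -0.74 and 1.11. The bar of Mxd3 is too narrow, because its SE is too small for the size of the change.

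The order of levels per kilobase differed between the groups, with Mxd3 at rank 9 in myotubes and 4 in myoblasts and Mycl at rank 2 in myotubes and 6 in myoblasts. In myotubes Mlx came first with 20.5 ± 0.849 CPM per kilobase (SD, n = 3), followed by Mycl, Myc, Max, Mxi1, Mnt, Mxd4, Mxd1, Mxd3 and Mycn. Neighbouring genes whose myotube libraries overlapped were Mycl with Myc, and Mxi1 with Mnt. In myoblasts Myc came first with 19.0 ± 0.948, followed by Mlx at 18.4 ± 0.329, Max at 14.9 ± 0.413, Mxd3 at 13.8 ± 0.170 and Mnt at 12.05 ± 0.774 (SD, n = 3), and then Mycl, Mxi1, Mxd4, Mxd1 and Mycn. Neighbours that overlapped in myoblasts were Myc with Mlx, and Mnt with Mycl. Exon lengths count all annotated exon bases in GENCODE, and the authors' own gene models may differ. For some genes the longest transcript is much shorter, as for Max with 1942 of 3598 bases. The order of genes, and the rank of Max above all, holds for this length alone.

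The pool of antagonist transcripts was smaller in myotubes and had another makeup. The 5 antagonists summed to 21.5, 22.7 and 21.7 CPM per kilobase in myotubes, against 37.0, 37.5 and 37.0 in myoblasts. Mxd3 made up 2.68% ± 0.420 of this sum in myotubes and 37.0% ± 0.351 in myoblasts (SD, n = 3). Mxi1 took 33.1% ± 2.85 in myotubes and 17.7% ± 1.62 in myoblasts, Mxd4 17.5% ± 1.51 in myotubes and 9.09% ± 0.445 in myoblasts, and Mxd1 13.8% ± 1.72 in myotubes and 3.78% ± 0.199 in myoblasts (SD, n = 3). The sum itself was smaller in myotubes, so shares rose more than levels. Mxi1 averaged 7.26 CPM per kilobase in myotubes and 6.56 in myoblasts, and Mxd4 averaged 3.84 in myotubes and 3.38 in myoblasts. The share of Mnt overlapped between the groups, at 32.9% ± 1.77 in myotubes and 32.4% ± 1.82 in myoblasts (SD, n = 3). Its level was nonetheless lower, at 7.24 CPM per kilobase in myotubes and 12.05 in myoblasts. Without Mxd3 the other 4 antagonists summed to 21.4 ± 0.584 in myotubes and 23.4 ± 0.237 in myoblasts (SD, n = 3).

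The balance of summed activators to summed antagonists was higher in myotubes. As a log2 ratio it was 0.69, 0.58 and 0.55 in myotubes, against -0.35, -0.28 and -0.31 in myoblasts, a difference of 0.92 between the group means. Activator transcripts outnumbered antagonist transcripts per length in each myotube library, and antagonist transcripts outnumbered activators in each myoblast library. Leaving Mxd3 out of the sum, a choice made after its values were seen, reduced the difference to 0.29, with values of 0.73, 0.63 and 0.58 in myotubes and 0.33, 0.38 and 0.35 in myoblasts. Without length scaling the difference was 0.56. These are transcript levels and say nothing of protein amounts, and no p is given because the genes were chosen with results known.

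**Figure D3:**
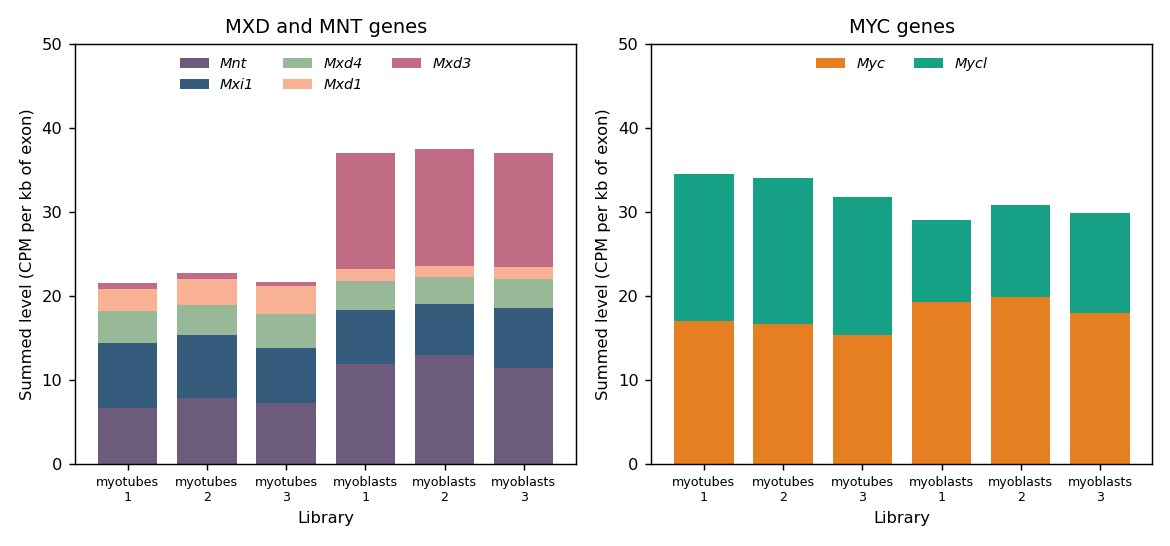
Summed level, in CPM per kilobase of exon, of the 5 antagonists (left) and of Myc and Mycl (right) in each library, stacked by gene, with myotubes left of myoblasts. The antagonist bars end near 22 in myotubes and 37 in myoblasts and differ mainly by the Mxd3 segment; Mycl and Myc segments are of similar height in myotubes.

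Genes whose profile over the 6 libraries was most like that of Mxd3 were Pole, a DNA polymerase subunit of replication, Ercc6l, a helicase of mitotic chromosomes, and Cenpe, a kinetochore motor. Likeness was the root mean square difference of log2(CPM + 1) after centring each gene, and was 0.0357, 0.0608 and 0.0643 for these genes. For Mxd1 the closest profiles were those of Fgd4, Tmem9b and Letm2, at 0.0302, 0.0400 and 0.0488. The measure is dominated by the difference between the groups, which 79.5% of tested genes also show.

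Other genes of the network and of its cofactors were read from lists. Mga, a dual T-box and helix-loop-helix partner of MAX, had 118 ± 6.18 CPM in myotubes and 101 ± 2.59 CPM in myoblasts (SD, n = 3; log2 change 0.23, SE 0.05, adjusted p = 0.000185 by edgeR's quasi-likelihood test), a call lost with scaling by total counts. The MONDO gene Mlxip did not pass (log2 change 0.08), and Mlxipl, its relative in liver and fat, had 1 count in myotubes and 2 counts in myoblasts. Of 12 coactivators and partners recruited by MYC, 10 fell and the other 2 did not pass. That is 83.3% called, against 79.5% of all genes tested, of which 39.2% were lower. Their median log2 change was -0.57, against a median of 0.02 over all genes tested. The ATPase gene Ruvbl2 fell by 0.997 on the log2 scale and its partner Ruvbl1 fell by 0.98, the largest falls in the list. Of the 50-base windows of Ruvbl1, 56.2% recur in other genes, so its count is uncertain, and 15.4% of the exon bases of Ruvbl2 overlap antisense genes.

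The Sin3 and NCoR corepressor subunits, through which the antagonists act, went both ways. Of 11 tested genes 3 rose and 7 fell, with a median log2 change of -0.18. That is 90.9% called, against 79.5% of all genes tested, 40.2% higher and 39.2% lower. Changes in both directions are thus also the pattern of the whole table. Hdac1, a histone deacetylase, fell by 1.67 on the log2 scale and Rbbp7, a histone chaperone, fell by 0.89. Sap30, a Sin3-associated subunit, rose by 1.16. Windows of Hdac1 and Rbbp7 recur in other genes for 58.7% and 15.1% of their longest transcripts, and their counts are uncertain for that reason.

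Genes that set MYC protein stability went both ways, and some of them changed by more than 2-fold. Of 11 tested, 4 rose and 5 fell, with a median log2 change of -0.10. That is 81.8% called, near the 79.5% of all genes tested. Past 2-fold, 2 rose and 3 fell, where 12.4% of all genes passed higher and 9.20% lower. Fbxw7, the ubiquitin ligase subunit that targets MYC for degradation, had 106 ± 2.48 CPM in myotubes and 21.4 ± 0.98 CPM in myoblasts (SD, n = 3), a 4.92-fold change (adjusted p = 2.81e-21 by edgeR's quasi-likelihood test). Usp28, a deubiquitinase known to oppose that ligase on MYC and named after its values were seen, also rose, with 137 ± 3.92 CPM in myotubes and 35.2 ± 0.646 CPM in myoblasts (SD, n = 3), a 3.90-fold change (adjusted p = 4.11e-21 by the same edgeR test). The mitotic kinase Aurka, which can shield MYCN from the FBXW7 ligase, fell by 3.72 on the log2 scale. Cip2a, an inhibitor of the phosphatase that destabilises MYC, fell by 3.58. Both also belong to the genes of dividing cells, and the markers of cycling cells fell with them.

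Known targets of the network were counted in each direction. Of 25 genes that MYC is known to induce, 2 rose and 20 fell, with a median log2 change of -0.66 against 0.02 over all genes tested. Rcc1, the nuclear exchange factor for Ran, fell by 1.76 on the log2 scale and Cad, which starts pyrimidine synthesis, fell by 1.73. Hk2, the muscle hexokinase, rose by 1.18. Of 8 tested genes that MYC is known to repress, 6 rose and 2 fell, with a median of 1.44. In either direction, 88% of the induced list and 100% of the repressed list were called, against 79.5% of all genes tested. Gadd45a, a stress-induced growth arrest gene, rose by 3.73 and the cyclin-dependent kinase inhibitor Cdkn1a by 3.25, while the growth factor receptor Pdgfrb fell by 1.27. Antisense genes overlap 19.1% of the exon bases of Gadd45a and 7.68% of those of Cdkn1a. Many of these genes also answer to the cell cycle and to myogenic factors, and the part of MYC in their levels was not tested.

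All 5 tested glucose-response genes of the MLX and MONDO arm were called higher, against 40.2% of all genes tested. The count was 4 with total counts, without myotube library 2 and without myoblast library 1. Their median log2 change was 1.61, against 0.02 over all genes tested, and 3 passed the 2-fold test. Klf10 and Khk, named after their values were seen, rose only 1.26-fold and 1.38-fold. Gpd1, the cytosolic glycerol phosphate dehydrogenase, rose by 6.85 on the log2 scale, with 2295 counts over the myotube group and 30 over the myoblast group. Txnip, the thioredoxin-binding protein that restrains glucose uptake, had 327 ± 24.7 CPM in myotubes and 69.0 ± 4.41 CPM in myoblasts (SD, n = 3), a 4.74-fold change. Antisense genes overlap 19.4% of the exon bases of Txnip and 13% of those of Gpd1. Pklr, the liver form of pyruvate kinase, had 0 counts in myotubes and 1 count in myoblasts. The part of MLX and MONDO proteins in these levels was not tested.

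**Figure D4:**
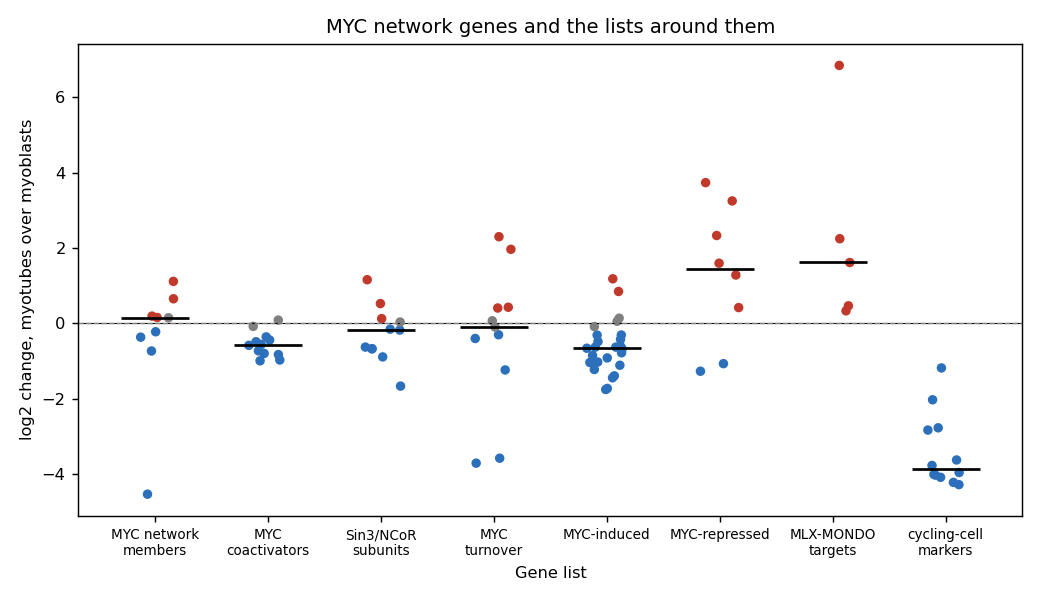
Log2 change of single genes, myotubes over myoblasts, for the MYC network and the lists around it; red points were called higher, blue lower and grey not called, and black bars are medians. Medians run from -3.87 for cycling-cell markers to 1.61 for MLX-MONDO targets, while the network genes spread around 0.15 with Mxd3 far below the rest; the dashed line is the median of all genes tested, 0.02.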

How the data were processed

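Poly(A) libraries were made with a stranded kit from TRIzol RNA, per the labels' protocols. The values are raw counts of reads in each gene as the authors deposited them, made with featureCounts, STAR, fastp and the mm10 build, per the submitters' processing notes; the sources used here give no version, no strand setting and no rule for multiply matching reads. Columns were matched to samples by name. Replicates were never identical (chi-square of 1.37 to 3.33 per degree of freedom).

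Counts were tested with edgeR 4.0.16 in R 4.3.3: filterByExpr (minimum count 10, minimum total 15) kept 12800 genes with at least 99.86% of each library, TMM factors were 0.949 to 0.952 in myotubes and 1.05 to 1.055 in myoblasts, and the robust quasi-likelihood test and glmTreat (log2 threshold 1) were adjusted by Benjamini-Hochberg over all genes. SE was obtained from the log2 change and the root of its F statistic, and 95% intervals use the fit's degrees of freedom. CPM are after TMM scaling. Lengths and overlaps come from GENCODE M21, coordinates and promoters from RefSeq GRCm38.p6. With Python 3.11.15, 50-base windows of the longest transcript were searched on both strands in transcripts of other genes. Overlapping antisense transcripts therefore count as recurrences. The TTTGAA element of cell cycle promoters was also searched. It lay in 1 of 9 members with a window (Mycn) and in 5 of 10 markers of cycling cells, against 20.2% of genes.

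All 10 members are named. From each list, called genes averaging 1 CPM or more were ranked by log2 change, and the top 2 in the majority direction and the top 1 in the minority direction are named, as are the 3 most similar profiles for each of 2 members. The members and lists were chosen with earlier results of these data known. Alternatives were DESeq2 1.42.0 size factors and Wald test, total counts, limma-voom (limma 3.58.1), other filters, a replicate block, thinning and leaving out each library. The Poisson interval of Mxd3 and the level of 3 counts cover counting error only, whereas intervals of log2 changes include the spread among libraries. The log2 interval of Mxd3 is an exception and is too narrow, because its SE is too small for the size of the change.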

Additional observations from a re-analysis of the deposited data

How the results depend on the processing

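The 4 lower calls, of Myc, Max, Mxd3 and Mnt, and the higher calls of Mycl and Mxd1 held in all 14 alternatives run, and Mxd3 alone passed the 2-fold test in each. The number of members called higher was 4, and 2 with total counts, the DESeq2 Wald test and no filter, and 2 to 3 without single libraries, 2 of them without myoblast library 2. The calls lost were those of Mxd4 (log2 change 0.04 to 0.24, adjusted p 0.0172 to 0.619) and Mlx (0.01 to 0.18, adjusted p 0.0335 to 0.93); the cause was not tested. Total counts moved the median of all genes from 0.02 to -0.13, and the log2 change of Mxi1 to -0.0004. The difference in the log2 ratio of activators to antagonists was 0.92, and 0.86 with the longest transcript as length, 0.56 with no length scaling, 0.29 without Mxd3 (chosen after seeing the data) and 0.88 to 0.95 without single libraries. With replicate number as a replicate block, 4 members were higher, 4 lower and 1 past 2-fold, with 10161 genes called in all; the block changed no member's call. Deviations of same-numbered libraries correlated at -0.0018, 0.011 and 0.00035, and not every library correlated best with its own number. These values show no effect shared by same-numbered libraries. They cannot tell whether such libraries were prepared together. Of 234 list counts under the alternatives, 228 stayed within 1.5 times. Depth limits Mxd3 in myotubes and Mycn in both groups.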

Other observations

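Promoter motifs of the genes around the network were read as a description. Of 19 MYC-induced genes with a RefSeq window, 5 (26.3%) held the E-box CACGTG, against 8.09% of all genes with a window. They were Ldha, Cdk4, Eif4e, Nme1 and Mybbp1a, named after their values were seen, of which Cdk4, Nme1 and Mybbp1a were called lower in myotubes and Ldha and Eif4e were not called. Cdk4, the G1 cyclin-dependent kinase, had 168 ± 8.0 CPM in myotubes and 443 ± 6.43 CPM in myoblasts (SD, n = 3), with 19.7% of its exon bases under antisense genes and 29.5% of its 50-base windows recurring in other genes, so its count is uncertain. Of the 10 markers of cycling cells with a window, 0 held the E-box and 4 an E2F site, against 10.9% of all genes with a window. In the MYC-induced list 8 of 19 held an E2F site.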
